A study of Rattus norvegicus with 40 samples.

Results

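ENSRNOT00000030569.5 is 1 of 31715 Ensembl transcripts quantified in rats that carry 1 disrupted copy of Tti2, and it was followed here through liver, hippocampus, peritoneal fat and soleus muscle. It was chosen by measured values of its genotype difference, namely its small p-value in the liver and its lower level in SHR-Tti2+/- rats outside the muscle. The size and direction of that difference are therefore given as a description, without a test. The transcript is 3211 bases long. The deposited tables give no gene names, and none of the 31715 identifiers matched a gene table of 47357 rat genes, so its gene, its genomic position, its sequence and its known role are not given here.

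RNA sequencing covered 40 samples from 12 rats, 6 of each genotype, with 5 rats per tissue and genotype. The control group, wild type, is the inbred spontaneously hypertensive rat strain SHR/OlaIpcv. The other group, Tti2 +/-, consists of heterozygous Tti2 knock-out littermates on the same background, written SHR-Tti2+/- below, all from 1 line that carries a small frameshift deletion in the first exon, made with a zinc finger nuclease. The sources used here name neither a treatment nor an age for the sequenced rats. Of the 6 rats of a genotype, those with the best RNA quality were sequenced in each tissue. The labels call the fat depot peritoneal, whereas the methods call it perirenal. Wild-type rat 1 and SHR-Tti2+/- rat 1 are different animals, but samples with the same genotype and number come from the same animal by their labels.

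Tti2 encodes a subunit of a chaperone complex with Telo2 and Tti1. The complex helps newly made kinases of the phosphatidylinositol 3-kinase-related family, such as mTOR, ATM and SMG1, to fold and assemble. These kinases act in nutrient sensing, in the response to DNA damage and in the decay of faulty messenger RNA. This is background on the knocked-out gene and does not place ENSRNOT00000030569.5 in any of these pathways. The level of Tti2 itself, which would check the genotype labels, could not be looked up by name, nor could marker genes of the tissues.

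The summed estimated counts of a sample lay between 19176393 and 32713126. In the hippocampus wild-type rat 2 stood apart, with a mean distance of 128 to the other samples on principal components 1 and 2, against 38.2 to 89.7 elsewhere. In fat, wild-type rat 3 was the most distant, at 104 against 53.8 to 74.6. The genotype difference in these tissues is given with and without those samples, and the spread, ranks and likeness with them only.

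Between 547 and 2763 estimated counts supported each value of ENSRNOT00000030569.5. All 40 of its estimated counts were whole numbers within 0.0001, so that kallisto, the program that assigned the reads, gave it no fraction of a read. The same was true of 45% of the 12858 transcripts with at least 5 counts in every sample. Counting error alone would give a coefficient of variation of 2.26% to 3.74% in the 8 groups. Levels within a tissue are given as CPM, counts scaled to a common library size, after TMM normalization, which scales each library so that most transcripts do not differ between samples.

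In the liver, ENSRNOT00000030569.5 was at 66.1% of the wild-type mean in SHR-Tti2+/- rats. Wild-type livers had 38.4 CPM in rat 1, 41.8 in rat 2, 47.3 in rat 4, 42.2 in rat 5 and 45.9 in rat 6. SHR-Tti2+/- livers had 27.3 CPM in rat 1, 26.3 in rat 2, 31.0 in rat 4, 30.1 in rat 5 and 27.8 in rat 6. The genotypes did not overlap, and the highest SHR-Tti2+/- liver lay well under the lowest wild-type liver. The means were 43.1 ± 3.52 CPM (SD, n = 5) and 28.5 ± 1.97 CPM (SD, n = 5). The log2 difference, SHR-Tti2+/- minus wild type, was -0.60 with a standard error of 0.068.

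This liver contrast was used to choose the transcript, so its place among all transcripts carries no further weight. By edgeR's quasi-likelihood test 38 of 18423 liver transcripts, 0.206%, passed an adjusted p-value of 0.1 and a 1.5-fold change. The result of ENSRNOT00000030569.5 in this test is not given, since it was chosen by this contrast. In 236 of the 18423, or 1.28%, all SHR-Tti2+/- livers lay below all wild-type livers. The fold change of ENSRNOT00000030569.5 sat close to the 1.5-fold limit, which is 0.58 on the log2 scale. With each liver left out in turn the log2 difference ran from -0.63, without wild-type rat 1, to -0.56, without wild-type rat 4. It was nearer to 0 than the limit also without wild-type rat 6 (-0.57), SHR-Tti2+/- rat 1 (-0.58) and SHR-Tti2+/- rat 2 (-0.57).

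In the hippocampus the transcript was at 84.1% of the wild-type mean. Wild-type hippocampi had 78.7 CPM in rat 1, 85.2 in rat 2, 83.8 in rat 3, 83.0 in rat 5 and 87.6 in rat 6. SHR-Tti2+/- hippocampi had 64.3 CPM in rat 1, 69.5 in rat 2, 71.5 in rat 3, 73.3 in rat 4 and 73.0 in rat 5. Here too the genotypes did not overlap, with a gap from 73.3 to 78.7 CPM. The means were 83.6 ± 3.27 CPM (SD, n = 5) and 70.3 ± 3.68 CPM (SD, n = 5), and the log2 difference was -0.25 (standard error 0.047). Of 20712 hippocampal transcripts, 0.594% were separated in this direction. Without wild-type rat 2, the sample that stood apart, the log2 difference was -0.25.

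In peritoneal fat the SHR-Tti2+/- mean was 81.2% of the wild-type mean, but the genotypes overlapped. Wild-type fat had 32.6 CPM in rat 1, 34.6 in rat 2, 31.7 in rat 3, 48.6 in rat 4 and 37.3 in rat 5. SHR-Tti2+/- fat had 24.3 CPM in rat 1, 31.2 in rat 2, 30.3 in rat 3, 31.9 in rat 4 and 32.3 in rat 5. Wild-type rat 4 stood above all others and SHR-Tti2+/- rat 1 below all others, and 3 of the 5 SHR-Tti2+/- rats lay below every wild-type rat. The means were 36.9 ± 6.85 CPM (SD, n = 5) and 30.0 ± 3.27 CPM (SD, n = 5), a log2 difference of -0.30 (standard error 0.122). Without wild-type rat 4 it was -0.18, and without wild-type rat 3, the fat sample farthest on principal components, it was -0.35. Separation in this direction was seen in 0.598% of 20221 fat transcripts, and ENSRNOT00000030569.5 was not among them.

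The total counts of the fat samples were also lower in SHR-Tti2+/- rats, at -7.30% relative to the wild-type mean (two-sided exact permutation test, p = 0.0476, Benjamini-Hochberg adjusted p = 0.190 over the 4 tissues). The difference in total counts, SHR-Tti2+/- minus wild type, was -12.7% in hippocampus (exact permutation p = 0.238), -5.10% in liver (exact permutation p = 0.508) and -1.21% in muscle (exact permutation p = 0.730). The hippocampus value includes wild-type rat 2, with 32713126 counts against 19176393 to 23159304 in the other wild-type rats. The part of these depth gaps in the genotype differences was not tested. On library totals without a TMM factor the log2 difference in fat was -0.27.

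In the soleus muscle the genotypes were interspersed. Wild-type muscles had 56.8 CPM in rat 2, 54.4 in rat 3, 54.9 in rat 4, 46.9 in rat 5 and 56.1 in rat 6. SHR-Tti2+/- muscles had 52.1 CPM in rat 2, 50.3 in rat 3, 56.1 in rat 4, 55.5 in rat 5 and 61.8 in rat 6. Both the lowest and the second highest were wild-type animals, and none of the SHR-Tti2+/- rats lay below every wild-type rat. The means were 53.8 ± 3.98 CPM (SD, n = 5) and 55.2 ± 4.39 CPM (SD, n = 5), with a log2 difference of 0.04 (standard error 0.070). Its sign changed without wild-type rat 5, to -0.0094, and without SHR-Tti2+/- rat 6, to -0.0074. Of 18120 muscle transcripts, 0.502% had all SHR-Tti2+/- samples below all wild-type samples.

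**Figure D1:**
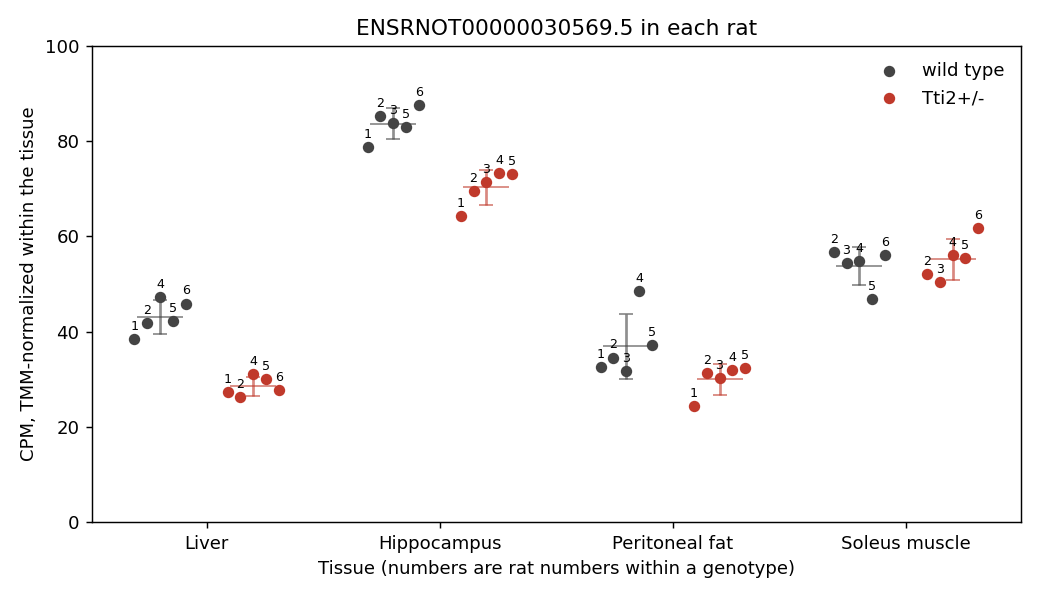
CPM of ENSRNOT00000030569.5 (vertical axis, TMM-normalized within each tissue) in every rat, by tissue and genotype; points are rats with their number, and the bars give the mean and SD of 5 rats. Liver and hippocampus show a gap between the genotypes (31.0 to 38.4 and 73.3 to 78.7 CPM), fat an overlap between 31.7 and 32.3 CPM, and the muscle a full overlap.

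Bulk tissue cannot tell fewer cells that make the transcript from less of it per cell. The values for liver, hippocampus and fat also depend little on the length model: on the TPM scale, in which kallisto divides by the effective length of each sample, SHR-Tti2+/- means were 64.1%, 84.6% and 83.2% of wild type, and 99.2% in the muscle. The effective length, the number of positions from which reads can start after bias correction, differed between the genotypes by 1.40% in the muscle, at 2803 ± 31.3 bases in wild type and 2843 ± 14.0 in SHR-Tti2+/- rats (SD, n = 5 each, two-sided exact permutation test, p = 0.0317, adjusted p = 0.127 over 4 tissues). In the other tissues it differed by at most 0.544% (exact p from 0.0873 to 0.611). In the muscle the sign of the genotype difference depended on the scale, as the log2 difference was 0.04 in CPM and -0.01 on the scale of log2(TPM + 1). The part of the effective length in this was not tested.

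**Figure D2:**
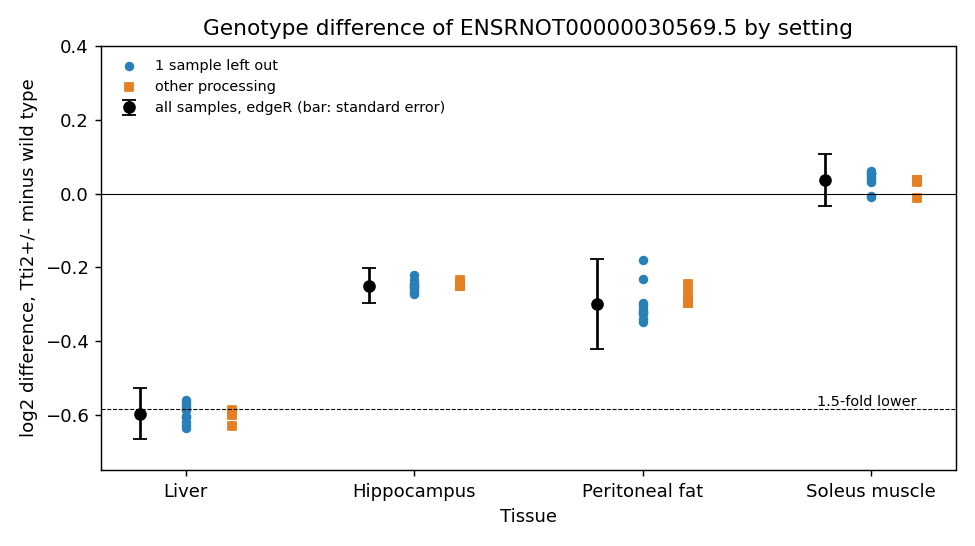
Log2 difference of ENSRNOT00000030569.5 between SHR-Tti2+/- and wild-type rats (vertical axis) in each tissue: black, all samples with the standard error; blue, 1 sample left out; orange, other normalizations, filters, tools and units. The dashed line marks a 1.5-fold lower level. All settings lie below 0 in liver, hippocampus and fat, and the liver points straddle the dashed line between -0.63 and -0.56.

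The spread between rats of 1 genotype was wider than counting error in each of the 8 groups and differed between tissues. The coefficient of variation of CPM was 3.91% in wild-type and 5.24% in SHR-Tti2+/- hippocampus, 7.40% and 7.96% in muscle, and 8.17% and 6.91% in liver. It was widest in fat, at 18.5% in wild-type and 10.9% in SHR-Tti2+/- rats. Among 3224 transcripts within 1.5-fold of its level in wild-type fat, 90.3% varied less, and their median was 7.49%. In SHR-Tti2+/- fat 72.1% varied less. In wild-type hippocampus 12.1% of 2350 such transcripts varied less in CPM and 25.7% in TPM, and in SHR-Tti2+/- hippocampus 55.8% in CPM. The median of similar transcripts was 8.85% in wild-type and 4.82% in SHR-Tti2+/- hippocampus, and the former includes rat 2, the sample that stood apart. No spread was computed without that sample.

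Because a rat gave up to 4 tissues, it can be asked whether an animal that was low in one tissue was low in another. Each log2 CPM value was set against the mean of its own tissue and genotype, which takes out the genotype difference used to choose the transcript. Wild-type rat 1 lay below its group mean in each of its 3 tissues, by -0.09 in hippocampus, -0.16 in liver and -0.16 in fat. SHR-Tti2+/- rat 1 did as well, by -0.13 in hippocampus, -0.06 in liver and -0.30 in fat. In SHR-Tti2+/- rat 1 the liver deviation was smaller than the SD of that group, 0.099 on the log2 scale. Wild-type rat 4 was above its group mean in muscle, liver and fat, by 0.03, 0.14 and 0.41. Wild-type rat 6 was above it in hippocampus, muscle and liver, by 0.07, 0.06 and 0.09. SHR-Tti2+/- rat 4 was above it in hippocampus, muscle, liver and fat, by 0.06, 0.03, 0.12 and 0.09, and so was SHR-Tti2+/- rat 5, by 0.06, 0.01, 0.08 and 0.11. The other 6 rats had deviations of both signs. Signs can agree by chance over 3 or 4 tissues, and the number of rats with 1 sign throughout was not tested.

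Across rats, 6 pairs of tissues were compared by an exact permutation of the rats within each genotype, two-sided. The deviations of hippocampus and liver had Pearson r = 0.79 and Spearman rho = 0.88 over 8 rats (exact permutation p = 0.0399 and 0.0260), with the same sign in 7 of 8. Those of liver and fat had r = 0.72 and rho = 0.79 over 8 rats (exact permutation p = 0.0781 and 0.0451), with the same sign in 6. Neither pair passed after adjustment over the 6 pairs (adjusted p = 0.156 for r and 0.122 for rho, exact permutation).

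Hippocampus and fat had r = 0.78 and rho = 0.65 over 9 rats (exact permutation p = 0.0587 and 0.0740), with the same sign in 5. Hippocampus and muscle had r = 0.64 and rho = 0.67 over 8 rats (exact permutation p = 0.108 and 0.0816), with the same sign in 7. Muscle against liver gave r = 0.24 and rho = 0.02 over 8 rats (exact permutation p = 0.547 and 1.00), with the same sign in 6. Muscle against fat gave r = 0.05 and rho = 0.10 over 8 rats (exact permutation p = 0.927 and 0.845), with the same sign in 3. The adjusted p-values of these 4 pairs were between 0.122 and 1.00 by the exact permutation test. No pair therefore passed. On the scale of log2(TPM + 1), r was 0.43 for hippocampus and fat and 0.38 for muscle and fat, so that the order of the pairs depended on the scale.

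Without the 2 rats farthest from the median of the tissue named first, r was 0.92 for hippocampus and liver, 0.56 for hippocampus and muscle, 0.49 for muscle and liver and 0.48 for liver and fat. It was 0.38 for hippocampus and fat, so that this relation rested in good part on 2 rats, and -0.09 for muscle and fat.

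**Figure D3:**
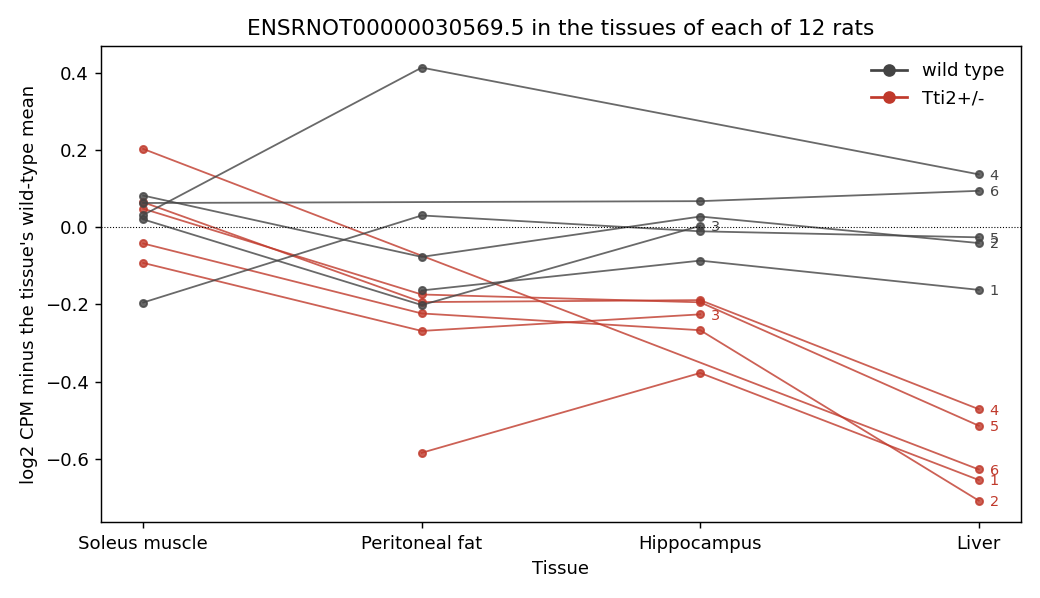
Log2 CPM of ENSRNOT00000030569.5 minus the wild-type mean of the tissue (vertical axis) for each of 12 rats; a line joins the tissues sampled from 1 rat and passes over a tissue that was not sequenced. Red lines (SHR-Tti2+/-) run among the black ones (wild type) in the soleus muscle and lie between -0.47 and -0.71 in the liver.

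Over liver, hippocampus and fat together, the mean deviation of a rat from the wild-type means lay between -0.14 and 0.27 in the 6 wild-type rats and between -0.63 and -0.25 in the 6 SHR-Tti2+/- rats. The lowest of these, SHR-Tti2+/- rat 6, rests on its liver alone. The 12 rats thus separated by genotype on this mean, as the choice of the transcript would give.

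Differences between the tissues were tested in wild-type rats only. Their values also entered the genotype difference, so the choice of the transcript may favour wild-type values that are high outside the muscle. The p-values are not free of this choice. The main fit did not pair the tissues of a rat. With the rat as a replicate block the same tissue pairs passed. In SHR-Tti2+/- rats the tissue differences are given as a description. The choice of a transcript that was lower outside the muscle bears on them directly. The order of the tissues depended on the scale. In TPM, wild-type rats had 47.4 ± 2.85 in hippocampus, 22.5 ± 1.60 in muscle, 19.0 ± 1.41 in liver and 18.3 ± 2.89 in fat (SD, n = 5 each). SHR-Tti2+/- rats had 40.2 ± 1.92 TPM in hippocampus, 22.4 ± 2.16 in muscle, 12.2 ± 0.600 in liver and 15.3 ± 1.63 in fat (SD, n = 5 each). On this scale the hippocampus was highest in both genotypes, and the liver lay above fat in wild-type rats and below it in SHR-Tti2+/- rats. In wild-type rats the values of liver (17.2 to 20.4 TPM) and fat (15.5 to 23.1 TPM) overlapped and did not differ beyond their spread (limma on log2(TPM + 1), log2 difference 0.06, standard error 0.082, adjusted p = 0.570).

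After TMM normalization across the 4 tissues of wild-type rats, the muscle was highest, at 86.4 ± 6.40 CPM, followed by liver at 59.3 ± 4.66, hippocampus at 54.4 ± 2.15 and fat at 25.8 ± 4.78 (SD, n = 5 each). TMM corrects for libraries in which a few abundant transcripts take many of the reads. Its factors averaged 0.625 in wild-type muscle and 0.736 in liver against 1.42 in fat and 1.54 in hippocampus. On library totals alone the hippocampus was again highest, with 83.5 ± 3.42 CPM against 53.9 ± 3.38 in muscle, 43.6 ± 3.20 in liver and 36.5 ± 6.31 in fat (SD, n = 5 each). Which of muscle and hippocampus holds more of the transcript thus turned on whether it was counted per read, per transcript, or relative to the bulk of other transcripts.

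**Figure D4:**
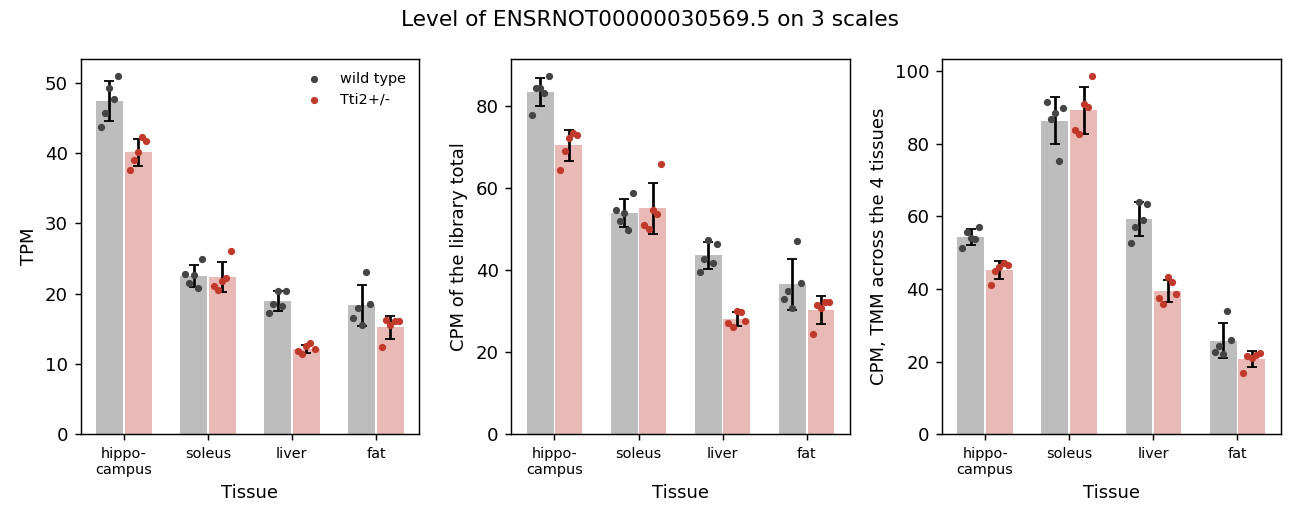
Level of ENSRNOT00000030569.5 in TPM, in CPM of the library total and in CPM after TMM across the tissues of each genotype (vertical axes); bars are means, lines the SD and points the 5 rats of each tissue and genotype. The hippocampus is highest in the first 2 panels (47.4 TPM and 83.5 CPM in wild type), and the soleus muscle in the third (86.4 CPM in wild type).

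With the TMM scale, edgeR's quasi-likelihood test, adjusted by Benjamini and Hochberg over 23418 transcripts, placed muscle above fat by 1.74 on the log2 scale (standard error 0.097, adjusted p = 4.96e-12). By the same edgeR test, liver was above fat by 1.20 (adjusted p = 1.26e-09) and hippocampus above fat by 1.08 (adjusted p = 4.62e-09). Hippocampus minus muscle was -0.67 (edgeR, adjusted p = 2.92e-06), which was reversed on the TPM scale (1.04) and on library totals (0.63), and was short of the fold limit with median-of-ratios size factors (-0.47). Muscle exceeded liver by 0.54 (edgeR, adjusted p = 3.90e-05), short of the 1.5-fold limit, which it passed at 0.59 without the muscle of wild-type rat 5. It was 0.31 on library totals and 0.24 on the scale of log2(TPM + 1). Hippocampus minus liver was -0.12 (standard error 0.094, edgeR, adjusted p = 0.238), so that these neighbours in the order did not differ beyond their spread on the TMM scale, although on the TPM scale the hippocampus was higher by 1.28. Muscle minus fat and liver minus fat kept their sign in TPM, at 0.29 and 0.06, but were short of the limit. Tissue differences were common: 59.8% of transcripts passed for muscle against fat, 55.1% for liver against fat, 64.1% for hippocampus against fat, 67.4% for hippocampus against muscle, 63.4% for muscle against liver and 70.2% for hippocampus against liver. TMM takes most transcripts to be unchanged, which these shares do not bear out between tissues. The edgeR p-values above therefore apply to this scale only. Even there they are not free of the choice of the transcript, and their fit did not pair the tissues of a rat.

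A separate fit of the SHR-Tti2+/- rats gave the order muscle, hippocampus, liver and fat on the TMM scale, with 89.2 ± 6.40, 45.3 ± 2.42, 39.5 ± 3.06 and 20.7 ± 2.26 CPM (SD, n = 5 each). The log2 differences were 2.11 for muscle minus fat, 1.18 for muscle minus liver, 1.13 for hippocampus minus fat, 0.93 for liver minus fat, -0.98 for hippocampus minus muscle and 0.20 for hippocampus minus liver. Those of liver minus fat and hippocampus minus muscle were reversed on the TPM scale, at -0.30 and 0.82. In the order muscle and fat, muscle and liver, hippocampus and fat, liver and fat, hippocampus and muscle, hippocampus and liver, 60.6%, 63.3%, 63.6%, 55.3%, 68.4% and 70.5% of 23358 transcripts passed both limits. Nothing is read from these shares about ENSRNOT00000030569.5.

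A measure that depends less on the scale is the place of its tissue difference among the 15693 transcripts tested in all 4 tissues. For hippocampus minus muscle in wild-type rats, the median of these transcripts was -0.23 on the TMM scale, 1.07 on library totals and 1.47 in TPM, so that the scale moves all transcripts together. Relative to that median ENSRNOT00000030569.5 was at -0.44, -0.44 and -0.40, and between 37.9% and 39.0% of transcripts had a lower difference. For muscle minus fat it was 1.76, 1.75 and 1.70 above the median, with 88.8% to 89.4% of transcripts below it. For liver minus fat it was 1.21 above the median on each scale, with 85.6% below. For hippocampus minus fat 81.8% to 81.9% of transcripts were below it, and for hippocampus minus liver it lay at the median on each scale (49.5% to 49.7% below). Against the rest of the transcripts the level in fat was thus low compared with each of the other tissues.

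By its TPM rank among detected transcripts, those with at least 5 counts in a sample, fat was again the lowest tissue. In wild-type rats 83.2% to 85.2% of detected transcripts had a lower TPM in hippocampus, 83.7% to 85.9% in muscle, 78.7% to 81.7% in liver and 66.3% to 75.9% in fat. The wild-type hippocampus thus ranked above the liver without overlap, whereas their difference lay at the median by the measure before. In SHR-Tti2+/- rats the ranges were 80.4% to 82.3% in hippocampus, 83.8% to 86.4% in muscle, 72.0% to 75.0% in liver and 60.6% to 67.5% in fat. These ranks did not overlap between the genotypes in liver and hippocampus, as for CPM.

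Among 15692 other transcripts, the patterns most like that of ENSRNOT00000030569.5 were those of ENSRNOT00000001201.7, with 3446 bases, and ENSRNOT00000028743.7, with 2101 bases. Likeness was Pearson's r over 40 samples of the log2 CPM set against the mean of its tissue, and was 0.86 and 0.84. The middle 90% of transcripts lay between -0.32 and 0.35. Since the samples share rats, libraries and the genotype, and since these are the 2 highest of many values, r is a description. Set against the mean of both tissue and genotype, which leaves the spread between rats alone, r was 0.76 and 0.74.

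Within single tissues, r of ENSRNOT00000030569.5 with ENSRNOT00000001201.7 over 10 samples was 0.93 in liver, 0.92 in fat, 0.65 in hippocampus and 0.61 in muscle. ENSRNOT00000001201.7 was at 50.1 ± 9.79 TPM in wild-type liver and 31.0 ± 2.99 TPM in SHR-Tti2+/- liver (SD, n = 5 each), and at 39.7 ± 8.48 and 28.6 ± 2.37 TPM in fat, where the genotypes overlapped. In hippocampus it had 220.3 ± 20.6 and 197.0 ± 5.22 TPM, with the lowest wild-type value at 204.1 and the highest SHR-Tti2+/- value at 203.5. In muscle it had 25.5 ± 5.62 and 22.1 ± 2.94 TPM, with overlap. In liver the lowest wild-type value was 35.8 and the highest SHR-Tti2+/- value 35.3 TPM. In log2 CPM minus the tissue mean the livers overlapped, as wild-type rat 1 was at -0.19 and SHR-Tti2+/- rat 5 at -0.12. Its log2 CPM difference between the genotypes was -0.63 in liver, -0.48 in fat, -0.16 in hippocampus and -0.15 in muscle. For ENSRNOT00000028743.7 the differences were smaller, at -0.23 in liver and in fat, -0.13 in hippocampus and -0.03 in muscle. Lower levels of both transcripts in SHR-Tti2+/- rats follow in part from the choice, since the genotype was left in the r that picked them.

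**Figure D5:**
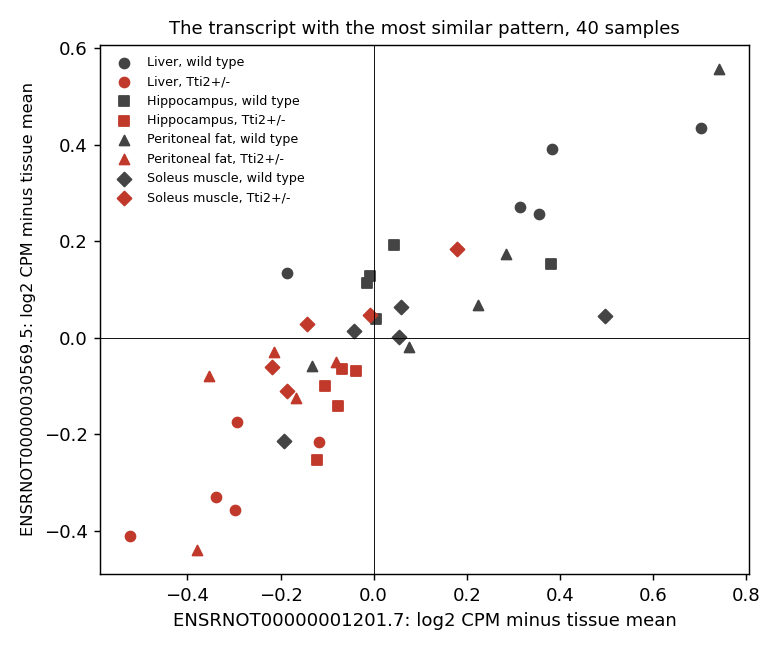
Log2 CPM minus the tissue mean of ENSRNOT00000030569.5 (vertical axis) against that of ENSRNOT00000001201.7 (horizontal axis) in 40 samples; colour gives the genotype and shape the tissue. The points run along a rising line, with r = 0.86, and fat of wild-type rat 4 lies at the upper right end.

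At the other end, ENSRNOT00000007583.7 and ENSRNOT00000079895.1 had the lowest r, -0.77 and -0.70 over the same 40 samples. Within tissue and genotype their r was -0.51 and -0.22. In the liver their log2 CPM was higher in SHR-Tti2+/- than in wild-type rats by 0.38 and 0.50, and in the muscle it differed by 0.05 and -0.01. Opposite liver differences follow in part from the choice, since the genotype was left in the r that picked these transcripts. ENSRNOT00000079895.1 was also at a low level in liver, 0.73 TPM in wild-type and 1.01 TPM in SHR-Tti2+/- rats. The files name no gene for any of these 4 transcripts.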

How the data were processed

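Polyadenylated RNA was sequenced single-end from strand-specific libraries, and the authors quantified it with kallisto (version 0.46.0 per the labels) against an Ensembl rat transcript set, genome build rn6, with bias correction. The deposited tables give, per transcript and sample, a length and an effective length in bases, an estimated count (also called expected count, with fractions where reads are shared) and a TPM value that kallisto scaled for length and depth.

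After rounding, the estimated counts were normalized by TMM in edgeR 4.0.16 (R 4.3.3). A minimum of 5 counts in 47% or more of a tissue's samples (for comparisons between tissues, in any 1 tissue) was required to enter edgeR's quasi-likelihood test. A call required a p-value below 0.1 after Benjamini-Hochberg adjustment and a 1.5-fold change or more. The genotypes were fitted in each tissue separately, and the tissues in each genotype separately, so that rats enter each tissue once; in SHR-Tti2+/- rats the tissue differences are given without p-values. The study used the Wald test of sleuth at the same limits and removed 1 hippocampus sample; here all samples were kept. The standard error of a log2 difference is its size divided by the square root of F. Likeness and deviations use log2 CPM with a prior count of 1.

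ENSRNOT00000030569.5, the comparisons and the rule for named transcripts (the 2 highest and 2 lowest in likeness) were chosen with earlier results of these data known. The genotype difference therefore has no p-value. Samples of 1 genotype with the same number come from the same rat by their labels. Across transcripts, the residuals of samples of the same rat had a median correlation of 0.0017 in wild-type and 0.0084 in SHR-Tti2+/- rats, against 0.0036 and -0.0017 between different rats. The medians of same-rat and different-rat pairs were alike, so this check does not bear out the pairing. Correlations between tissues were tested by exact permutation of the rats within genotypes, 576 or 2880 permutations, with a smallest possible p of 0.0017 or 0.00035.

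Total estimated counts ranged from 19176393 to 32713126 with a median of 24195968. No samples of a group were duplicates, as chi-square divided by its degrees of freedom was 6.38 or more for each pair. Counting error is the smallest error these depths allow and does not cover the spread between rats. On simulated counts for 18423 liver transcripts with a genotype effect, edgeR at an adjusted p-value below 0.1, without the fold limit, recovered 44.8% of transcripts changed 1.5-fold, 80.6% of those changed 2-fold and 95.5% of those changed 4-fold, and 13% of the transcripts past that limit had not been changed. Changes were planted only above a mean count higher than the filter for testing, so these shares do not cover the weakest tested transcripts. Alternatives were median-of-ratios size factors, DESeq2 1.42.0, limma 3.58.1 on log2(CPM + 0.5) and log2(TPM + 1), other count filters, a replicate block and samples left out. Library totals without a composition factor were added after the data were seen. Gene names and sequences were not used here, since no identifier matched the gene table.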

Additional observations from a re-analysis of the deposited data

Results flagged for a closer look

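Groups of 5 samples were searched for single distant samples in the CPM, TPM, effective length and total count, by the gap to the nearest sample as a share of the range, with 0.71 as Dixon's critical value. Of 32 searches, 1 per group and quantity, 4 passed, where chance would give about 1.6 if the searches were independent. They were not, since CPM and TPM scale the same counts, and both passed for 1 sample. No excess over chance is read from this. In SHR-Tti2+/- fat, rat 1 had 24.3 CPM and 12.4 TPM of ENSRNOT00000030569.5, against 30.3 to 32.3 CPM in the other rats. Without it the log2 genotype difference in fat was -0.23. In wild-type muscle, rat 5 had 46.9 CPM, against 54.4 to 56.8 in the others, and without it the muscle difference was -0.01. In wild-type liver, the effective length of the transcript was 2665 bases in rat 1, the rat with the lowest CPM of its group. The causes were not tested.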

How the results depend on the processing

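The genotype difference moved by less than the SD between rats under all 33 alternatives and all 40 fits without 1 sample. This is a wide limit. It admits the sign changes in muscle and the move in fat from -0.30 to -0.18 without wild-type rat 4. Over the alternatives the genotype difference ran from -0.63 to -0.59 in liver, -0.25 to -0.23 in hippocampus, -0.30 to -0.24 in fat and -0.01 to 0.04 in muscle. With the rat number as a replicate block, although numbers name different animals in the genotypes, it was -0.60, -0.25, -0.29 and 0.04. With the rat as a replicate block no call between tissues changed in wild-type rats, where hippocampus minus muscle was -0.60. In SHR-Tti2+/- rats, where the tissue differences are a description, it was -0.93.

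The differences between tissues depended on the scale. In wild-type rats, library totals gave 0.63 for hippocampus minus muscle, 0.94 for hippocampus minus liver, 0.26 for liver minus fat and 0.56 for muscle minus fat, and log2(TPM + 1) gave 1.04, 1.28, 0.056 and 0.29. In SHR-Tti2+/- rats, library totals gave 0.35 for hippocampus minus muscle, 1.32 for hippocampus minus liver and -0.10 for liver minus fat. In TPM these were 0.82, 1.64 and -0.30, and muscle minus fat was 0.53. With at least 10 counts in every sample, hippocampus minus muscle was -0.44 in wild-type and -0.56 in SHR-Tti2+/- rats, and hippocampus minus liver 0.025 in wild-type rats. For wild-type hippocampus minus muscle, median-of-ratios size factors and DESeq2 gave -0.47 each. Other than for the scale, which moves all transcripts together, the cause was not tested.

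Without 1 sample, muscle minus liver in wild-type rats ran from 0.51 to 0.59. The correlation of muscle and fat ran from -0.27, without wild-type rat 4, to 0.23, and was 0.38 in TPM. That of muscle and liver ran from 0.04, without SHR-Tti2+/- rat 2, to 0.49, without SHR-Tti2+/- rat 6, and that of hippocampus and fat fell from 0.78 to 0.43 in TPM. Wild-type muscle minus liver was 0.31 on library totals and 0.24 in TPM. The coefficient of variation in wild-type hippocampus was 6.01% in TPM against 3.91% in CPM.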
